A study of Sus scrofa with 4 samples.

Results

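T-box transcription factors of lung mesenchyme were examined in sorted pig lung cells. The set is 8 genes chosen by name (TBX1, TBX2, TBX3, TBX4, TBX5, TBX15, TBX18 and TBX20), of which 7 were found among the 29263 genes of the deposited count tables. TBX15, a factor of skeleton and fat, is not among the gene names in these tables and was not analysed here. All 4 libraries come from lung of pigs with the genotype LGR5-H2B-GFP knock-in: a green fluorescent histone there reports transcription of LGR5, a receptor for the Wnt-amplifying R-spondins. Cells were separated by fluorescence into GFP-HI, the bright cells, and GFP-NEG, the cells without fluorescence, with 2 libraries from biological replicates in each group. The negative cells carry the same knock-in, and animals without it were not analysed here. The shared protocol covers both adult and fetal lung and does not say which applies. The only statement of stage is the name of the comparison table, which reads adult pig beside a code that the name does not explain.

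T-box proteins bind DNA through a shared domain, the T-box, and act as activators or repressors. In the developing lung, TBX4 and TBX5 are made in the mesenchyme, where they act upstream of FGF10, the growth factor that drives airway branching. TBX2 and TBX3 are repressors of the same tissue and keep its cells dividing by holding down cell-cycle inhibitors and secreted Wnt antagonists. TBX18 is known from mesothelium, smooth muscle precursors and mural cells, TBX1 from the pharyngeal arches and TBX20 from the heart.

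TBX2, TBX3, TBX4, TBX5 and TBX18 were each more abundant in both GFP-HI libraries than in either GFP-NEG library, by 2.43 to 4.73 times in the fitted model. TBX1 and TBX20 lay under 1 CPM in both GFP-HI libraries and a little higher in GFP-NEG. CPM, the unit of level, is the count of a gene divided by the scaled size of its library (TMM scaling). Levels are compared between libraries and not between genes, because no transcript lengths were used. In sorted bulk RNA, fewer cells that make a transcript and less transcript per cell cannot be told apart.

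The GFP-HI libraries held 24200550 and 24689986 counts (replicates 1 and 2) and the GFP-NEG libraries 6292253 and 7045652, so depth and group cannot be told apart. LGR5 itself was counted 3218 and 3073 times in GFP-HI against 10 and 7 times in GFP-NEG. The 12 fibroblast markers summed to 93670 and 81200 CPM in GFP-HI, against 31300 and 11150 CPM in replicates 1 and 2 of GFP-NEG. The GFP-NEG replicates therefore differ in how much RNA of these markers they hold, by 2.81 times in this sum. The collagen genes COL1A1, COL1A2 and COL3A1 were its largest members in each library, at 19480, 30100 and 17780 CPM in GFP-HI replicate 1. The gap between the GFP-NEG replicates varied by marker, from VIM at 1736 and 1335 CPM to FN1 at 4537 and 738 CPM. The 11 smooth muscle and pericyte markers also differed between the GFP-NEG replicates, with sums of 2880 and 461 CPM, against 2484 and 2872 CPM in GFP-HI. This sum mixed markers of both directions, with a fitted change above 0 for 5 of the 11. MYH11 was at 43.5 and 28.4 CPM in GFP-HI against 306 and 57.1 CPM in GFP-NEG, and RGS5 at 2.85 and 14.6 against 47.7 and 27.3 CPM. PDGFRB was at 704 and 387 CPM in GFP-HI against 154 and 30.8 CPM in GFP-NEG, and CSPG4 at 495 and 202 against 134 and 45.6 CPM. Summed endothelial markers (9 genes in the tables) were 213 and 210 CPM in GFP-HI against 1391 and 589 CPM in GFP-NEG, summed immune markers (12 genes) 273 and 456 CPM against 1767 and 2668 CPM, and summed epithelial markers (11 genes) 371 and 367 CPM against 831 and 221 CPM. Of 8 mesothelial markers, 3 were in the tables (WT1, CALB2 and BNC1), with sums of 0 and 0.248 CPM in GFP-HI against 1.40 and 3.62 CPM in GFP-NEG. Of 9 cardiac muscle markers, 6 were in the tables, with sums of 32.8 and 22.2 CPM in GFP-HI against 38.5 and 21.7 CPM in GFP-NEG, and MYL4 was at 0 in both GFP-HI libraries. The part of these cells in the results that follow was not tested.

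TBX4 and TBX5, the activators of lung budding and branching, were higher in GFP-HI and nearly equal between its replicates. TBX4 was counted 1193 and 961 times in replicates 1 and 2 of GFP-HI, against 163 and 42 times in those of GFP-NEG, which is 54.1 and 47.6 CPM against 25.3 and 4.604 CPM. Its mean was 50.85 ± 4.53 CPM in GFP-HI against 15.0 ± 14.6 CPM in GFP-NEG (SD, n = 2 in each). Both GFP-HI values lay above both GFP-NEG values, and the SD of GFP-NEG was nearly as large as its mean. The log2 fold change of TBX4 was 1.77 ± 0.54 (SE), with an adjusted p of 0.0039 (edgeR quasi-likelihood test, Benjamini-Hochberg over 19682 genes). TBX5 was counted 3004 and 2365 times in GFP-HI against 462 and 75 times in GFP-NEG, or 136 and 117 CPM against 71.7 and 8.22 CPM. The mean was 127 ± 13.3 CPM against 40.0 ± 44.9 CPM (SD, n = 2 in each). The GFP-HI libraries again were close to each other, while the GFP-NEG libraries were 8.72 times apart. TBX5 rose by 1.67 ± 0.55 on the log2 scale (SE), and edgeR gave an adjusted p of 0.0093. The adjusted p of TBX5 was 0.081 under DESeq2, where the call was lost, and that of TBX4 was 0.044.

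TBX2 and TBX3, the mesenchymal repressors, were higher in GFP-HI as well, but differed more between its replicates. TBX3 was counted 11741 and 4334 times in GFP-HI against 1187 and 197 times in GFP-NEG, which is 532 and 215 CPM against 184 and 21.6 CPM. GFP-HI replicate 1 was thus 2.48 times replicate 2, and replicate 2 stood only a little above GFP-NEG replicate 1. The mean was 373 ± 224 CPM in GFP-HI against 103 ± 115 CPM in GFP-NEG (SD, n = 2 in each). The log2 fold change of TBX3 was 1.86 ± 0.66 (SE) with an adjusted p of 0.016 (edgeR), against 0.054 under DESeq2. TBX2 was counted 1273 and 696 times in GFP-HI against 216 and 42 times in GFP-NEG, or 57.7 and 34.5 CPM against 33.5 and 4.604 CPM. GFP-HI replicate 2 and GFP-NEG replicate 1 were almost level for this gene, and the means were 46.1 ± 16.4 and 19.1 ± 20.5 CPM (SD, n = 2 in each). The log2 fold change of TBX2 was 1.28 ± 0.53 (SE), the smallest of the 5, with an adjusted p of 0.044 (edgeR), and the call was lost under most settings, among them DESeq2 (adjusted p of 0.21), library-size scaling (0.15), upper-quartile scaling (0.11), thinning of GFP-HI (0.16), the filter of 1 CPM in 2 libraries (0.11) and no filter (0.052).

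TBX18 rose as well, with the largest fold change of the 5 in the fit of all 4 libraries without a block. It was counted 858 and 604 times in GFP-HI against 69 and 36 times in GFP-NEG, which is 38.9 and 29.9 CPM against 10.7 and 3.95 CPM. The lower GFP-HI library was well above the higher GFP-NEG library. The means were 34.4 ± 6.315 and 7.33 ± 4.785 CPM (SD, n = 2 in each), and the log2 fold change was 2.24 ± 0.58 (SE, adjusted p of 6.6e-04, edgeR). With the replicate block, TBX3 was larger than TBX18 (2.42 against 2.38), and without GFP-NEG replicate 1 TBX18 was the smallest of the 5 (3.17). Of 12 alternative settings, TBX18 was called under 11, DESeq2 included (adjusted p of 0.0033), TBX4 under 9, TBX5 under 8, TBX3 under 7 and TBX2 under 3.

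**Figure D1:**
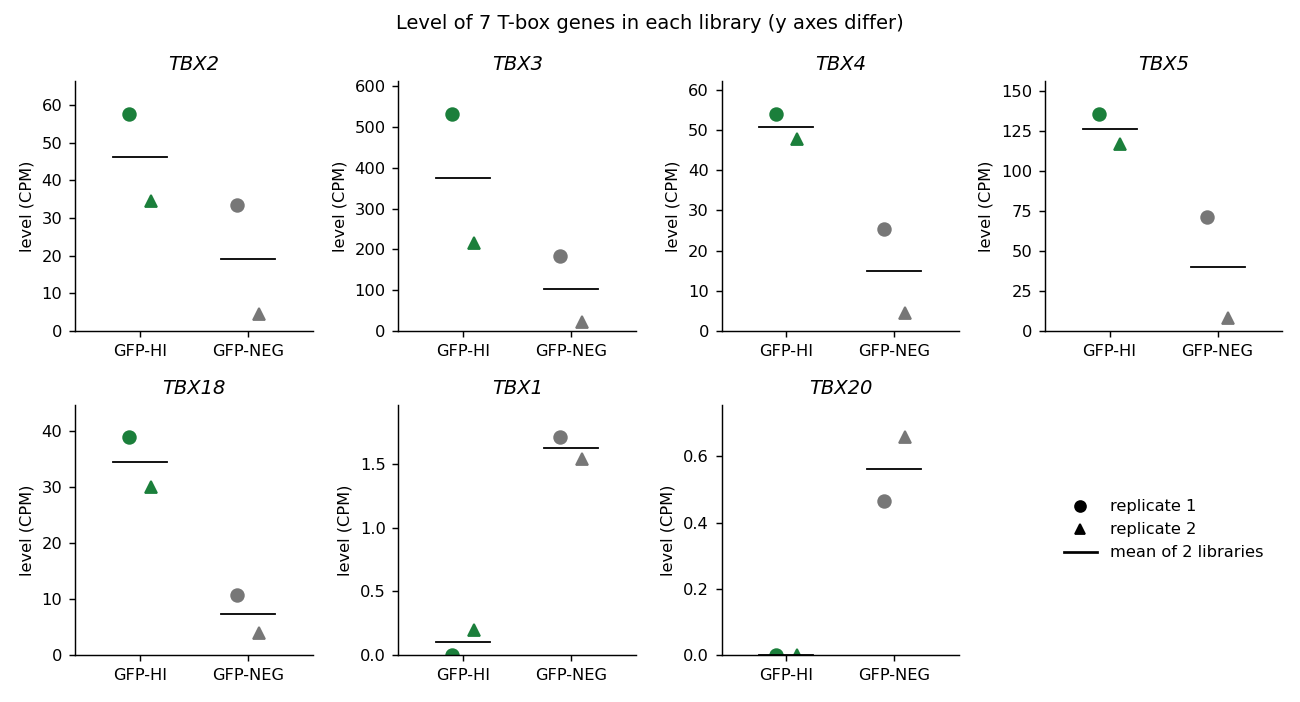
Level of 7 T-box genes (y axis, CPM after TMM scaling, linear from 0, with a different range in each panel) in the 2 GFP-HI libraries (green) and the 2 GFP-NEG libraries (grey). Circles are replicate 1, triangles replicate 2 and bars the mean of 2 libraries. TBX2, TBX3, TBX4, TBX5 and TBX18 lie higher in GFP-HI, with GFP-NEG replicate 1 between GFP-HI and GFP-NEG replicate 2, and TBX1 and TBX20 are at or near 0 in GFP-HI.

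Of the 7 genes in the tables, 5 were called higher in GFP-HI and 1, TBX1, was called lower, while TBX20 was below the filter on low counts. TBX1 passed that filter only through its GFP-NEG values, so that it could only be called lower. Across all 19682 genes tested, 8.35% were called higher and 27.6% lower, and 36.0% were called in either direction. Both GFP-HI libraries lay above both GFP-NEG libraries for 27.7% of tested genes. The 5 higher genes had the same order of levels, GFP-HI replicate 1, GFP-HI replicate 2, GFP-NEG replicate 1 and GFP-NEG replicate 2, an order found in 9.04% of tested genes. Part of this order was fixed beforehand, since these genes had both GFP-HI libraries above both GFP-NEG libraries. Of the 5453 tested genes with that feature, 1779 had this order. With 2 libraries against 2, an exact permutation test of a single gene cannot give a two-sided p under 0.333, so that the calls rest on the spread shared across genes in the model. The fit moved each gene's own scatter to the common trend, and the wide gap between the GFP-NEG replicates therefore carried little weight in these p-values.

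The size of the difference depended on which GFP-NEG library was compared. Within replicate 1, the log2 difference between GFP-HI and GFP-NEG was 1.10 for TBX4, 0.92 for TBX5, 0.78 for TBX2, 1.53 for TBX3 and 1.86 for TBX18. Within replicate 2 it was 3.37, 3.83, 2.91, 3.31 and 2.92 for the same genes, so that all 5 were higher in GFP-HI in both replicates. TBX18 differed least between the replicates. Without GFP-NEG replicate 2, the 5 log2 fold changes ranged from 0.42 to 1.64 and 0 of the 5 passed the threshold in edgeR (1 at an unadjusted p under 0.05; 1.23% of all genes were called higher). Without GFP-NEG replicate 1 they ranged from 3.17 to 4.16 and all 5 passed (7.62% of all genes). With the replicate block all 5 passed (8.67% of genes called higher). Leaving out either GFP-HI library kept 1 call, TBX18, with adjusted p-values of 0.041 without replicate 1 (5.23% of genes called higher) and 0.020 without replicate 2 (3.03%). In each of these fits the lone library of a group is assumed to vary like the others.

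**Figure D2:**
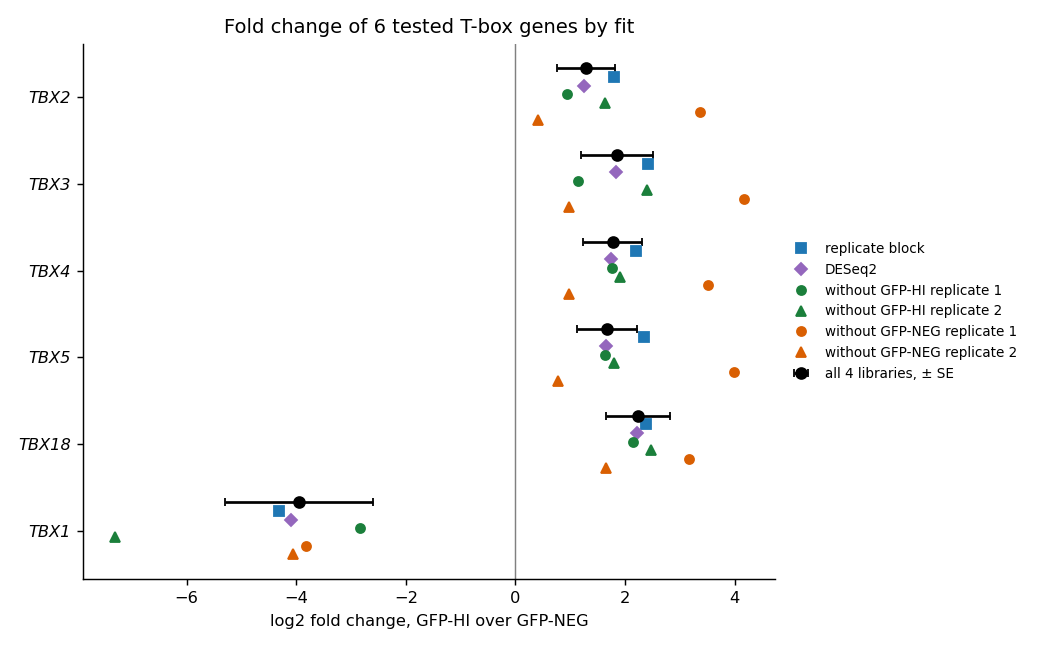
Log2 fold change of 6 tested T-box genes (x axis, GFP-HI over GFP-NEG, positive meaning higher in GFP-HI) by fit (symbols). The black circle with bars is the fit of all 4 libraries with its SE, and the other symbols are edgeR with a replicate block, DESeq2, and fits without 1 library. The points without GFP-NEG replicate 1 stand at 3.17 or more for the 5 genes higher in GFP-HI, and those without GFP-NEG replicate 2 at 1.64 or less.

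TBX1 and TBX20, whose best known roles lie outside the lung mesenchyme, had almost no counts in GFP-HI. TBX1 was counted 0 and 4 times in GFP-HI against 11 and 14 times in GFP-NEG, or 0 and 0.198 CPM against 1.71 and 1.53 CPM. It passed the filter on low counts only through its GFP-NEG values, and its call as lower (-3.95 on the log2 scale, edgeR, adjusted p of 0.013) was lost with a replicate block (adjusted p of 0.096), under DESeq2 (0.063) and without any 1 library (0.086 to 0.30). The background of lower calls was 24.4% of genes with the block, 26.7% under DESeq2, and 13.2% and 12.0% without GFP-HI replicates 1 and 2 and 23.3% and 8.98% without GFP-NEG replicates 1 and 2. TBX20 had 0 counts in both GFP-HI libraries, which allows up to 0.136 and 0.149 CPM (3 counts, counting error only), and 3 and 6 counts in GFP-NEG. Low counts of many kinds were more frequent in GFP-NEG, where 24120 and 25985 genes had at least 1 count against 18752 and 18392 in the deeper GFP-HI libraries. Of the odorant receptor genes, which serve the nose, 54.3% and 86.7% had a count in the GFP-NEG libraries, against 4.76% and 1.91% in GFP-HI. Their 95th percentile in GFP-NEG was 1.366 and 4.89 CPM, so that TBX20 lay below it in both replicates and TBX1 in replicate 2. The part of this low signal in the TBX1 difference was not tested.

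The balance between paired members was compared as one gene's share of both genes' counts, which needs no scaling between libraries. TBX4 and TBX5 are each other's closest relatives, and TBX4 held 28.4% of their joint counts in GFP-HI replicate 1 (95% exact binomial interval 27.1 to 29.8), 28.9% in GFP-HI replicate 2 (27.4 to 30.5), 26.1% in GFP-NEG replicate 1 (22.7 to 29.7) and 35.9% in GFP-NEG replicate 2 (27.2 to 45.3). These intervals, which cover counting error only, overlap in all 4 libraries at the depth available. TBX2 and TBX3 form the other pair of close relatives, and TBX2 held 9.78% (9.28 to 10.3) and 13.8% (12.9 to 14.8) of their joint counts in GFP-HI, and 15.4% (13.6 to 17.4) and 17.6% (13.0 to 23.0) in GFP-NEG. The balance of this pair differed between the GFP-HI replicates by more than the counting error, and both GFP-NEG shares were above both GFP-HI shares, although the intervals of GFP-HI replicate 2 and GFP-NEG overlap.

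TBX2 lies beside TBX4 (2 other protein-coding entries between them), and TBX3 beside TBX5 (1 other), in RefSeq's annotation of the pig assembly Sscrofa11.1, an arrangement known from other vertebrates. TBX3 held 79.6% (79.0 to 80.3) and 64.7% (63.5 to 65.8) of the joint counts of TBX3 and TBX5 in GFP-HI and 72.0% (69.8 to 74.1) and 72.4% (66.7 to 77.7) in GFP-NEG. TBX2 held 51.6% (49.6 to 53.6) and 42.0% (39.6 to 44.4) of the counts of TBX2 and TBX4 in GFP-HI and 57.0% (51.8 to 62.0) and 50.0% (38.9 to 61.1) in GFP-NEG. In both neighbouring pairs the repressor's share was higher in GFP-HI replicate 1 than in GFP-HI replicate 2, beyond counting error, while the shares of the GFP-NEG replicates overlapped.

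**Figure D3:**
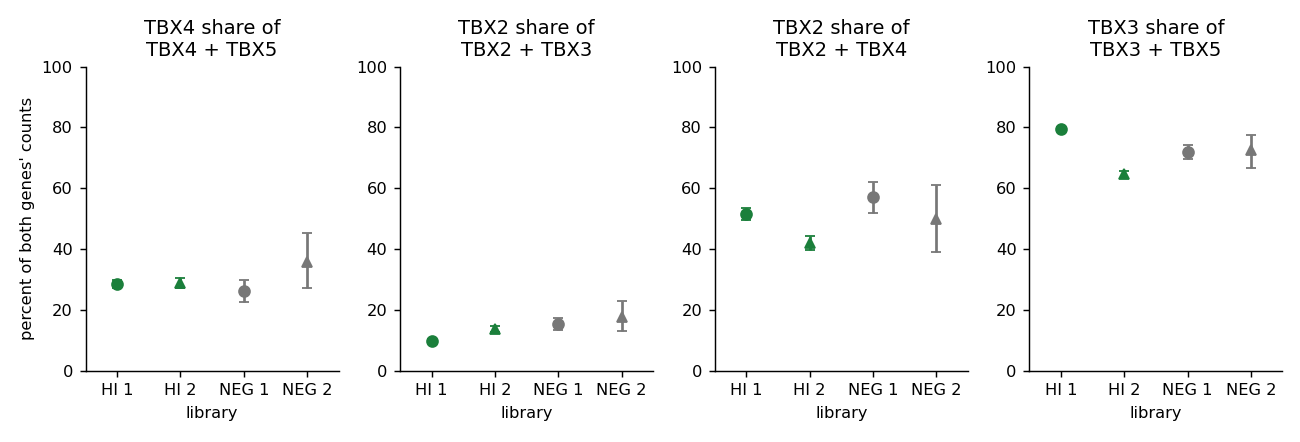
Share of one member in the joint counts of a pair (y axis, percent, 0 to 100) in each library (x axis; HI is GFP-HI, NEG is GFP-NEG, with the replicate number), with 95% exact binomial intervals that cover counting error only. TBX4 holds 26.1% to 35.9% beside TBX5 in all 4 libraries, and the TBX3 share beside TBX5 falls between 64.7% and 79.6%.

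The 3 nearest protein-coding genes found in the tables on each side were taken for each pair, 12 in all, of which 2 were called, against 36.0% of all tested genes. None of the 6 around TBX2 and TBX4 was called in edgeR or DESeq2 (0 also at an unadjusted p under 0.05), with log2 fold changes between -0.73 (BRIP1, a DNA repair helicase) and 0.78 (APPBP2). Of the 6 around TBX3 and TBX5, FBXW8, a ubiquitin ligase subunit, rose by 1.79 (log2, edgeR, adjusted p of 0.0044), and LHX5, a homeobox factor of the brain with 0 counts in both GFP-HI libraries and 7 and 16 in GFP-NEG, was called lower. LHX5 passed the filter on low counts only through its GFP-NEG values, so that it could only be called lower. The other 4, MED13L, RNFT2, RBM19 and SDSL, did not pass. FBXW8 kept its call under the alternatives except without GFP-HI replicate 1 (1.64, adjusted p of 0.095) and without GFP-NEG replicate 2 (1.09, 0.49), and was at 3.08 without GFP-NEG replicate 1. LHX5 lost its call without GFP-HI replicate 1 (adjusted p of 0.096), GFP-HI replicate 2 (0.10) or GFP-NEG replicate 1 (0.051).

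Members were next set against fibroblast RNA in the same library, as CPM of the gene per 1000 CPM of the 12 summed fibroblast markers. The collagen genes weigh most in this sum. By this measure, TBX4 was at 0.577 and 0.587 in GFP-HI against 0.809 and 0.413 in GFP-NEG, and TBX5 at 1.45 and 1.44 in GFP-HI against 2.29 and 0.738 in GFP-NEG. TBX2 was at 0.616 and 0.425 against 1.07 and 0.413, and TBX3 at 5.68 and 2.65 against 5.89 and 1.94. For these 4 genes the groups overlapped, with GFP-NEG replicate 1 the highest of the 4 libraries. TBX18 was at 0.415 and 0.369 in GFP-HI against 0.342 and 0.354 in GFP-NEG, so that its groups did not overlap, with GFP-HI replicate 2 just above GFP-NEG.

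The reading changed with the marker used as a base. Per 100 CPM of PDGFRA, a growth factor receptor of fibroblasts that was counted 18141 and 11348 times in GFP-HI against 626 and 207 times in GFP-NEG, all 5 genes were lower in GFP-HI with no overlap. TBX4 was at 6.58 and 8.47 in GFP-HI against 26.0 and 20.3 in GFP-NEG, TBX5 at 16.6 and 20.8 against 73.8 and 36.2, and TBX18 at 4.73 and 5.32 against 11.02 and 17.4. TBX2 was at 7.02 and 6.13 against 34.5 and 20.3, and TBX3 at 64.7 and 38.2 against 190 and 95.2. The log2 fold changes of the 5 members, 1.28 to 2.24, stand beside 3.53 for PDGFRA and a median of 2.25 over the 12 fibroblast markers, and these differences were not tested.

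**Figure D4:**
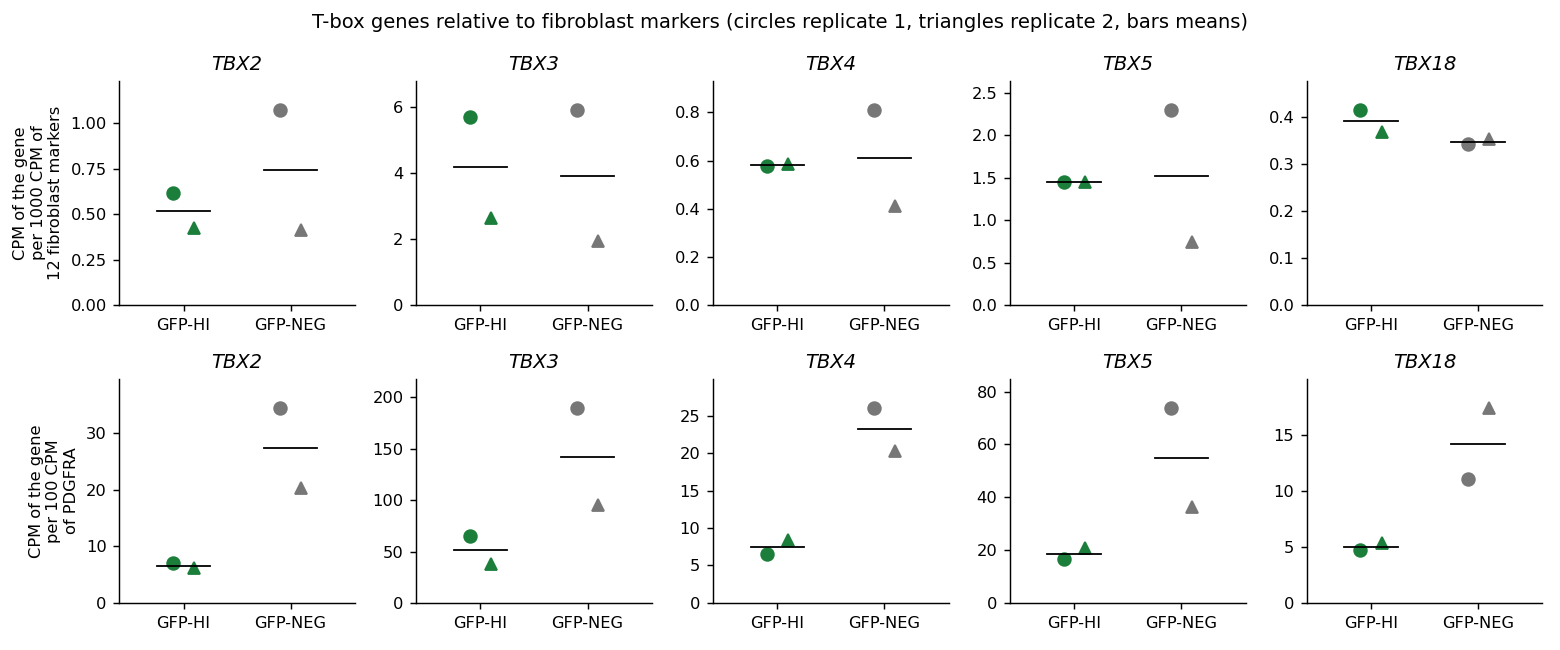
CPM of 5 T-box genes per 1000 CPM of the 12 summed fibroblast markers (upper row, y axis) and per 100 CPM of PDGFRA (lower row, y axis), in GFP-HI (green) and GFP-NEG (grey), with circles for replicate 1, triangles for replicate 2 and bars for means of 2 libraries. In the upper row only TBX18 has its groups apart, and in the lower row all 5 genes are lower in GFP-HI.

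Among other T-box genes, the T cell factors were lower in GFP-HI, as were the summed immune markers. Of 9 such genes, all in the tables, 5 were tested, 3 were called lower and 0 higher in edgeR (0 higher at an unadjusted p under 0.05 and 0 in DESeq2), with a median log2 fold change of -3.10. TBX21 and TBX22 passed the filter on low counts only through GFP-NEG, so that they could only be called lower. The count and the median carry this limit. For comparison, edgeR called 27.6% of all tested genes lower and 8.35% higher. DESeq2 called 2 of these 5 genes lower, beside 26.7% of all tested genes. TBX21, the T-bet factor of T and natural killer cells, was counted 10 and 7 times in GFP-HI against 26 and 101 times in GFP-NEG and fell by 4.21 (log2, edgeR, adjusted p of 8.2e-04). Without GFP-NEG replicate 2 its value was -3.35 and did not pass (adjusted p of 0.13). EOMES, its relative in the same cells, was counted 0 and 54 times in GFP-HI against 24 and 174 times in GFP-NEG. With 0 counts in GFP-HI replicate 1, it too needed GFP-NEG to pass the filter on low counts. EOMES fell by 3.10 (adjusted p of 0.0015, edgeR). The call was lost under DESeq2 (0.44), without GFP-HI replicate 1 (-1.90) or without GFP-NEG replicate 2 (-1.51), and the value was -10.1 without GFP-HI replicate 2, where the remaining GFP-HI library holds 0 counts. TBX22, a factor of palate development, had 0 counts in both GFP-HI libraries and 12 in each GFP-NEG library, at least 8.85-fold lower in GFP-HI against the floor of 3 counts per library, and lay below the odorant receptor percentile of GFP-NEG replicate 2. TBX22 lost its call without GFP-HI replicate 1 or 2 (adjusted p of 0.084 and 0.089). MGA, a large protein with a T-box, was at 92.6 and 75.9 CPM in GFP-HI against 71.4 and 62.6 CPM in GFP-NEG (log2 fold change 0.33, adjusted p of 0.67, edgeR). TBX6 was at -0.26 (adjusted p of 0.89), and TBR1, TBX10, TBX19 and TBXT had at most 8 counts in any library.

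Genes that act before or after T-box factors in lung were called in both directions, with FGF10, BMP4, PTCH1, GLI1 and FGFR2 higher. Of 15 listed genes, 14 were in the tables and 11 were tested. Of these, 5 were called higher and 3 lower, against 8.35% and 27.6% of all tested genes. Their median log2 fold change was 0.78, against -0.25 over all tested genes. FGF10, the target of TBX4 and TBX5, was at 103 and 158 CPM in GFP-HI against 17.7 and 6.91 CPM in GFP-NEG, a rise of 3.41 ± 0.58 (SE) on the log2 scale (edgeR, adjusted p of 2.9e-07). The fitted change of FGF10 was larger than that of each T-box gene that rose, a difference that was not tested. BMP4, a growth factor that shapes the branching airway, rose by 4.12. PTCH1 and GLI1, readouts of hedgehog signalling in mesenchyme, rose by 3.55 and 3.81, while SHH itself had 0 counts in both GFP-HI libraries and 3 and 5 in GFP-NEG. FGF10, BMP4, PTCH1 and GLI1 kept their calls without any 1 of the 4 libraries. FGFR2, the receptor of FGF10, rose by 1.46 (adjusted p of 0.026, edgeR), but was not called under DESeq2 (0.094), and was at 0.74 without GFP-NEG replicate 2 and 2.83 without GFP-NEG replicate 1. WNT2 and WNT2B, Wnt ligands of lung mesenchyme, were at 0.78 and -1.17 and did not pass.

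Of the genes that TBX2 and TBX3 are known to repress, CDKN1A, FRZB and CDH1 fell, CDKN1B did not pass and SHISA3 was not tested. Lower calls were frequent over the whole table, at 27.6% of all tested genes, and a part of TBX2 or TBX3 in these falls was not tested. CDKN1A, which encodes the cell-cycle inhibitor p21, was at 26.3 and 27.2 CPM in GFP-HI against 186 and 323 CPM in GFP-NEG, a fall of 3.25 ± 0.63 (SE, adjusted p of 9.1e-06, edgeR) that was called without any 1 library. CDKN1B, which encodes p27, was at 17.8 and 20.8 CPM against 13.0 and 13.2 CPM and did not pass (log2 fold change 0.56, adjusted p of 0.49). FRZB, a secreted Wnt antagonist, was at 16.3 and 6.35 CPM in GFP-HI against 87.4 and 18.5 CPM in GFP-NEG and fell by 2.22 (adjusted p of 2.8e-04, edgeR). This size rested on GFP-NEG replicate 1, without which it was -0.66 (adjusted p of 0.53), and it was -1.66 without GFP-HI replicate 2 (0.14). SHISA3 had at most 23 counts in any library. CDH1, the epithelial cadherin, fell by 1.69 (adjusted p of 0.0095, edgeR), but its values without GFP-HI replicate 2 (-0.96) and without GFP-NEG replicate 1 (-1.37) did not pass.

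Among genes of proteins that bind T-box factors, YAP1 was called higher and MEF2C, GATA4 and SALL1 lower. Of 13 such genes, 12 were in the tables and 9 were tested, so that 1 was higher and 3 lower, against 8.35% and 27.6% of all tested genes, with a median log2 fold change of -0.17. YAP1, a Hippo pathway coactivator, was counted 4768 and 2118 times in GFP-HI against 680 and 93 times in GFP-NEG, and its groups overlapped in CPM, with GFP-HI replicate 2 just below GFP-NEG replicate 1. It rose by 1.47 (adjusted p of 0.030, edgeR), and its partner WWTR1 was at 1.23 and did not pass (0.056). With the replicate number as a block, YAP1, WWTR1 and GATA5 were all called (adjusted p of 0.0058, 0.011 and 0.021). YAP1 lost its call under DESeq2 (0.16), upper-quartile scaling (0.052), library-size scaling (0.068), the filter of 1 CPM in 2 libraries (0.093) and thinning (0.11). The call was also lost without GFP-HI replicate 1 (0.41), GFP-HI replicate 2 (0.12) or GFP-NEG replicate 2 (log2 fold change 0.57), while the value was 4.03 without GFP-NEG replicate 1. MEF2C, a muscle and endothelial factor, was at 13.5 and 17.9 CPM in GFP-HI against 80.4 and 84.3 CPM in GFP-NEG and fell by 2.39, without any 1 library as well. The cardiac partners of TBX5 and TBX20 were scarce: NKX2-5 and HAND1 had 0 counts in GFP-HI and at most 15 in GFP-NEG, and GATA4 had 4 and 0 counts against 11 and 17. GATA4 and SALL1 (0 and 1 counts against 6 and 38) passed the filter only through GFP-NEG, so that they could only be called lower. GATA4 was not called without a filter (adjusted p of 0.069), with the block (0.074) or without any 1 library (0.071 to 0.27). SALL1 lost its call without GFP-HI replicate 1 (0.082).

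Of 10 other transcription factors of lung mesenchyme, 8 were called higher in GFP-HI, as 5 T-box genes were, and 0 lower. Over all tested genes, edgeR called 8.35% higher and 27.6% lower. Of the 10, 0 were lower at an unadjusted p under 0.05 in edgeR and 0 were called lower in DESeq2. Their median log2 fold change was 2.11. GLI3 (0.53, adjusted p of 0.50, edgeR) and FOXF2 (2.35, 0.082) did not pass. DESeq2 and library-size scaling each called 5 of the 10 higher, beside 6.91% of all tested genes under DESeq2 and 888 of 19682 under library-size scaling. The list median was 1.89 without GFP-HI replicate 1 and 1.91 without GFP-HI replicate 2. In each of these fits, and without GFP-NEG replicate 2, fewer of the 10 were called. PRRX1, a mesenchymal homeobox factor, was at 81.0 and 136 CPM in GFP-HI against 31.7 and 9.43 CPM in GFP-NEG, a rise of 2.40 (adjusted p of 1.4e-04, edgeR). FOXF1, the forkhead factor of lung mesenchyme, rose by 2.06 and, like TBX3, was higher in GFP-HI replicate 1 (173 CPM) than in replicate 2 (77.9 CPM). Neither kept its call without GFP-NEG replicate 2 (PRRX1 at 1.74, FOXF1 at 1.33), and FOXF1 was not called without GFP-HI replicate 1 (1.47). TCF21, a factor of lung fibroblasts that store lipid, was at 496 and 778 CPM in GFP-HI against 365 and 17.5 CPM in GFP-NEG. Its rise of 1.74 (adjusted p of 0.047, edgeR) was 5.23 without GFP-NEG replicate 1, 0.76 without GFP-NEG replicate 2, and not called under DESeq2 (0.45). Like the T-box genes, this list also depended on the GFP-NEG libraries, with a median log2 fold change of 1.31 without replicate 2 and 3.52 without replicate 1. With the block in edgeR, 9 of 10 were called, FOXF2 being added (adjusted p of 0.028), against 8.67% of all tested genes called higher.

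**Figure D5:**
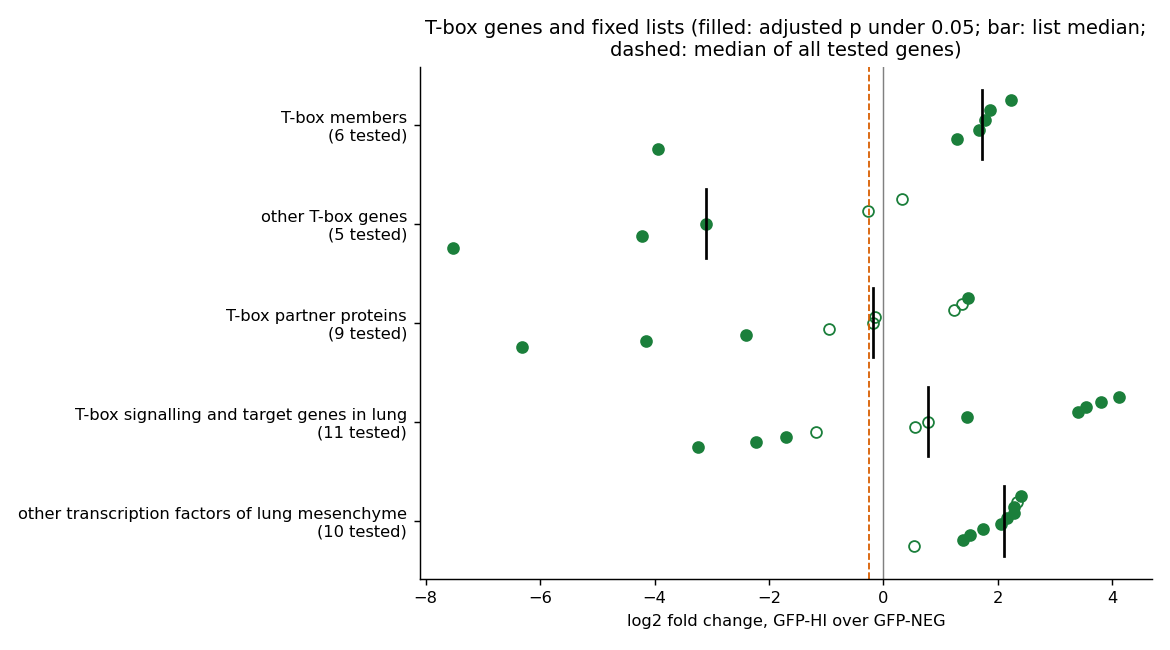
Log2 fold change (x axis, GFP-HI over GFP-NEG) of each tested gene (points) in the T-box set and 4 lists (y axis). Filled points have an adjusted p under 0.05 in edgeR, black bars are list medians and the dashed line is the median of all tested genes, -0.25. The T-box set has TBX1 at -3.95 and 5 genes between 1.28 and 2.24, beside medians of 2.11 for the other mesenchymal factors and -3.10 for the other T-box genes.

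The genes most like each member over the 4 libraries were sought by the Euclidean distance between centred log2 CPM profiles, among 12777 genes with a symbol and a mean of at least 1 CPM. With 4 points in each profile, this likeness is a description of the libraries only. Nearest to TBX4 were CCDC8 (distance 0.083), SPARC, an abundant matrix-binding protein of fibroblasts (0.12), and CNRIP1 (0.12), and nearest to TBX5 were DAAM1, a formin of Wnt polarity signalling (0.12), MYLK, the myosin light chain kinase (0.22), and CHODL (0.23). TBX2 was followed most closely by PALLD, ITGAV and TNS1 (0.12 to 0.14), which encode parts of the actin and adhesion machinery. TBX3 was nearest to WNT11, a Wnt ligand (0.18), EVA1B (0.27) and HOXB6 (0.32), and TBX18 to SHF (0.091), MORC4 (0.12) and PBX3 (0.16). WNT11 shared the gap of TBX3 between the GFP-HI replicates, at 45.6 and 17.8 CPM, and stood at 15.4 and 1.97 CPM in GFP-NEG. TBX1 was nearest to ADAM28 (0.098), IL2RG (0.17) and CD300C (0.23). IL2RG, a receptor chain of lymphocytes, was at 35.6 and 75.2 CPM in GFP-HI against 454 and 435 CPM in GFP-NEG. TBX1 had only 0 and 4 counts in GFP-HI, so its log2 profile there rests largely on the small count added before the logarithm. Its distances to these genes carry this limit.

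The authors' deposited table holds 5 of the members. In the authors' deposited table, TBX18 stands at 2.24 (log2) with an adjusted p of 0.0044, and TBX4 at 1.77 with 0.047. For TBX3, TBX5 and TBX2 the authors' deposited table gives log2 fold changes of 1.86, 1.67 and 1.28 with adjusted p-values of 0.053, 0.079 and 0.20. TBX18 and TBX4 are therefore the members under 0.05 there, among 8.2% of its 16250 genes that are higher at that level. DESeq2 on the counts here called the same 2 members, with 6.91% of genes called higher. The log2 fold changes of the 5 members in the edgeR fit are within 0.01 of those in the authors' deposited table, and those of DESeq2 on the counts here are slightly smaller for all 5.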

How the data were processed

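RNA from sorted lung cells was sequenced after Nextera XT library preparation, per the labels' protocols. The deposited tables hold whole-number counts per gene; featureCounts (Subread 1.5.2) and DESeq2 1.37.6 are named in the submitters' processing notes. Aligner, strand setting and genome build are not given in the sources used here, so reads of overlapping or antisense genes cannot be separated. The authors' deposited comparison table gives per gene a log2 fold change and p-values before and after adjustment. Its 4 count columns are identical to the single tables, and its 4 normalized columns were not used, since the headings of a pair of them are exchanged relative to the counts. Of the Ensembl identifiers, 834 of 844 with a known symbol were renamed.

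The main test was edgeR 4.0.16 (R 4.3.3; glmQLFit, glmQLFTest) on all genes with TMM scaling, filterByExpr (19682 genes kept) and group as the only term, with an adjusted p under 0.05 as threshold. The standard error is the log2 fold change divided by the square root of F. DESeq2 1.42.0, other scalings and filters, thinned GFP-HI counts, each library left out and a replicate block were alternatives. The procedure was also run on simulated counts, drawn with the trend in spread fitted to these data. That run held no added gap between replicates like that in GFP-NEG, so it cannot show how the calls fare under such a gap. The normalized columns of the deposited table name pig 1 and pig 2 in each group, but these are the headings of which a pair is exchanged. Sample titles and count columns give replicate numbers only, so same-numbered libraries may pair by animal, which is not certain. The deviations of same-numbered libraries from the group means correlated with an r of 0.16 across genes. The main test leaves such a pairing out, and the replicate block includes it. The labels call the libraries biological replicates. The members and lists were chosen with earlier results of these data known, and marker ratios, pair shares, neighbours and odorant receptors were added after the values were seen. Named genes are the members, genes of the fixed lists and, for each tested member, the 3 genes of nearest profile. A list of heart genes is not reported here. No sequences were printed, as none were provided for these genes.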

Additional observations from a re-analysis of the deposited data

How the results depend on the processing

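The direction of TBX2, TBX3, TBX4, TBX5, TBX18 and TBX1 was the same under all 12 alternatives. The number of members called higher was 5 of 6 tested, 2 under DESeq2, 3 with GFP-HI thinned to the GFP-NEG depth, and 0 to 5 when 1 library was left out; 1 member, TBX1, was called lower, and 0 without a filter on low counts, under DESeq2, with the replicate block, after thinning and, as a range, 0 to 0 with 1 library left out. With the replicate block, where libraries of the same replicate number are paired, the 5 higher members kept their calls, with log2 fold changes of 1.80 to 2.42. Over all genes, 1643 were higher and 5433 lower; 1083 were higher under upper-quartile scaling and 888 under library size alone, 3562 were lower after thinning, and leaving out 1 library gave 216 to 1635 higher and 1575 to 4999 lower. The median over all genes was -0.25, and -0.58 and -0.68 under these scalings. List medians moved as well: for partner proteins from -0.17 to -0.52 (upper quartile), -0.62 (library size alone), -0.90 (no filter) and between -0.83 and -0.15 with 1 library left out; for lung signalling and target genes from 0.78 to 0.46, 0.36, -0.25 and, after thinning, 0.63, and between 0.53 and 0.81 with 1 library left out; for other T-box genes between -3.91 and -0.80 with 1 library left out. The cause was not tested, except that the thinned and filtered fits test other genes. The GFP-NEG depth limits low genes, since 1 count there is 0.155 and 0.1096 CPM.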
